A study of Mus musculus with 14 samples.

Results

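The genes described here encode subunits of the proteasome, the large protease that degrades proteins tagged with ubiquitin, together with the chaperones that carry a subunit-type symbol. Members were taken by name alone: every gene symbol that starts with Psma, Psmb, Psmc or Psmd and ends in a number, in both deposited count tables. This gave 39 of 24984 symbols, namely 8 core alpha genes, 11 core beta genes, 6 ATPase genes and 14 non-ATPase genes. Of the non-ATPase genes, 8 encode lid subunits, 3 encode base subunits and 3 (Psmd5, Psmd9 and Psmd10) encode chaperones that help assemble the base.

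The core of the proteasome is a barrel of stacked rings. Alpha subunits form the outer rings that gate entry, and beta subunits form the inner rings that hold the proteolytic sites. A regulatory particle caps the barrel: its ATPases unfold substrates and drive them inward, and its lid and base bind ubiquitin chains and remove them. Some positions have alternative subunits. Psma8 takes the place of Psma7 in germ cells that enter meiosis, Psmb8, Psmb9 and Psmb10 take the places of Psmb5, Psmb6 and Psmb7 in immune cells and under interferon, and Psmb11 is known from the cortical epithelium of the thymus.

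The libraries were bulk RNA sequencing of c-KIT-positive differentiating spermatogonia, germ cells on the way to meiosis, sorted by flow cytometry from testes of C57BL/6J mice. In the deletion experiment, 3 injections of tamoxifen had been given to 2 animals that were Rosa26-CreERT2; Cbx2[Flox/Δ], and 3 of corn oil alone to 2 controls that were Rosa26-CreERT2; Cbx2[Flox/+]. All 4 animals carried the inducible recombinase, driven from a locus active in most cell types and so not restricted to germ cells, and the groups differed both in the Cbx2 allele and in tamoxifen. In the 23KRA experiment, 5 animals were Cbx2[23KRA/23KRA], an allele in which lysines and arginines of the protein's CaPS domain are changed to alanine, and 5 were Cbx2[+/+], all untreated. Cbx2 is a chromodomain subunit of a Polycomb repressive complex. The labels give no age. A library was taken to stand for 1 animal. The question put to both experiments was how the change in Cbx2 altered gene expression, and it is answered here for proteasome genes.

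Libraries of the deletion experiment held 28169990 to 31166500 counts and those of the 23KRA experiment 14562564 to 19814511. Cbx2, the targeted gene, had 95.8 ± 2.67 CPM with oil and 82.5 ± 5.66 CPM with tamoxifen (SD, n = 2 each), a difference that did not pass the test (log2 fold change -0.21, SE 0.12). Reads outside the deleted part of the gene would still count, so its level does not check the deletion. In the 23KRA experiment Cbx2 had 73.0 ± 12.6 CPM in wild types and 64.1 ± 17.4 CPM in homozygous animals (SD, n = 5 each). That difference did not pass the test either (log2 fold change -0.19, SE 0.16). Kit, the sort marker, was at 231 CPM in oil-treated controls and 254 CPM in wild types. Markers of spermatocytes summed to between 2208 and 4503 CPM, and those of spermatids to between 227 and 3036 CPM. Those of macrophages and leukocytes summed to between 12.9 and 196 CPM. By the spermatid and leukocyte markers, the sorted cells held RNA of other stages and of a few other cells. Bulk RNA cannot tell fewer cells of a type from less RNA per cell.

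Proteasome genes were abundant in these spermatogonia. CPM is a gene's count per 1000000 counts of the scaled library, and CPM per kb divides it by exon length so that genes can be compared. All members together took 1.07% and 1.02% of counts in the controls of the deletion experiment, and 1.16% and 1.03% in its deleted animals. In the 23KRA experiment, made with another kit, they took 0.521% to 0.565%. Levels from the 2 kits were normalized separately and are only set side by side.

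Among the constitutive subunits, levels per kb in the oil-treated controls were 463 CPM per kb for Psmb2, a structural beta subunit, 421 for Psma6, an outer-ring subunit, 361 for Psmc3, an ATPase, and 349 for Psmd2, the scaffold of the base. These led their groups. In wild types of the 23KRA experiment the leaders were Psma4 at 363 CPM per kb, Psmc3 at 317, Psmd4 at 202 and Psmb6 at 126. Psmc3 led the ATPases in both kits, while the leading alpha, beta and non-ATPase gene differed between them. Per kb of all annotated exons the order shifts: Psmd2 then led the non-ATPase genes in both experiments (256 and 137 CPM per kb), and Psmb4 the beta genes in wild types (58.2 against 53.5 for Psmb6). Psmd10, Psma8, Psmd9, Psmb10, Psmb9, Psmb8 and Psmb11 held the lowest 7 places per kb of RefSeq-matched exons in both experiments. Over all annotated exons Psmd3, a lid subunit, came below Psmd10 in the deletion controls (32.1 against 35.5 CPM per kb), and the other 6 were still the lowest. The germ cell form, all 3 inducible forms, the thymic form and the chaperone Psmd9 thus lay at the bottom of the family with either exon set. Psma8 itself was at 33.5 ± 1.96 CPM per kb in controls (SD, n = 2) and 11.3 ± 1.96 in wild types (SD, n = 5), next to Psmd10 at 35.5 ± 1.92 and 12.4 ± 1.91. The intervals of mean ± SD of these neighbours overlapped in both experiments with RefSeq-matched exons, but over all annotated exons Psma8 was at 22.7 and 7.67 CPM per kb, with Psmd10 unchanged.

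Psma7 and Psma8, the somatic and germ cell forms of the same outer-ring position, lie on chr2:180036374-180042433 (minus strand) and chr18:14706151-14762301 (plus strand) in GRCm38. Their coding sequences were identical at 74.9% of aligned positions, with no identical run longer than 17 bases, and neither had another annotated transcript at least 95% identical to it over 200 bases. Psma7 was at 314 and 303 CPM in the oil controls, against 369 and 299 CPM in the deleted animals. Psma8 was at 59.0 and 54.3 CPM in the oil controls, against 71.4 and 62.6 CPM in the deleted animals. Deleted replicate 1 was the highest library for both genes, as it was for 30.3% of all genes tested. The groups overlapped for Psma7 but not for Psma8, and both deleted libraries were above both controls for 15.6% of all genes.

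In the 23KRA experiment, Psma7 was at 135, 135, 117, 134 and 122 CPM in wild types and at 127, 140.5, 169, 164 and 148 CPM in homozygous animals. Psma8 was at 20.4, 15.0, 19.1, 23.8 and 17.4 CPM in wild types and at 30.1, 23.8, 20.7, 21.03 and 26.1 CPM in homozygous animals. Both genes had higher means in homozygous animals and both overlapped between groups. The homozygous library with the most Psma8, replicate 1, had the least Psma7 of its group.

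Psma8 was thus expressed well above counting background but as a minor form. Per kb, there were 10.1 and 9.70 Psma8 per 100 Psma7 in the controls and 10.5 and 11.3 in the deleted animals. In wild types the values were 8.17, 5.99, 8.85, 9.59 and 7.70, and in homozygous animals 12.8, 9.17, 6.63, 6.92 and 9.51. The 2 deleted libraries lay above both controls, whereas the homozygous values ran from inside the wild-type range to above it. As group means, Psma8 stood at 9.92 ± 0.314 and 10.9 ± 0.601 per 100 Psma7 in the deletion experiment (SD, n = 2 each) and at 8.06 ± 1.36 and 9.002 ± 2.48 in the 23KRA experiment (SD, n = 5 each). These levels depend on which exons are taken as the gene. Over all annotated exons the means per 100 were 22.6 in controls and 24.8 in deleted animals. They were 18.4 in wild types and 20.5 in homozygous animals. Only the differences on the log2 scale between groups stay as they are.

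The log2 ratio of Psma8 to Psma7 was 0.13 higher in deleted animals than in controls (exact two-sided permutation p = 0.333, n = 2 each, the smallest p that 2 against 2 allows). In homozygous animals it was 0.14 higher than in wild types (exact two-sided permutation p = 0.540, n = 5 each, with 0.00794 the smallest possible). That value rested on homozygous replicate 1: without it the difference was -0.0011. In the homozygous group this library had the lowest summed level of the spermatocyte markers, 2208 CPM against 2306 to 3048 CPM in the other 4, and whether the makeup of the cells bears on the ratio was not tested. Each gene on its own was also higher without passing the test: Psma8 by 0.24 (SE 0.12) in the deletion and 0.35 (SE 0.19) in 23KRA on the log2 scale, Psma7 by 0.11 (SE 0.11) and 0.22 (SE 0.094). With Benjamini-Hochberg adjustment over all genes, the adjusted p of edgeR's quasi-likelihood test was 0.971 for both genes in the deletion and 1.00 for both in 23KRA.

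**Figure D1:**
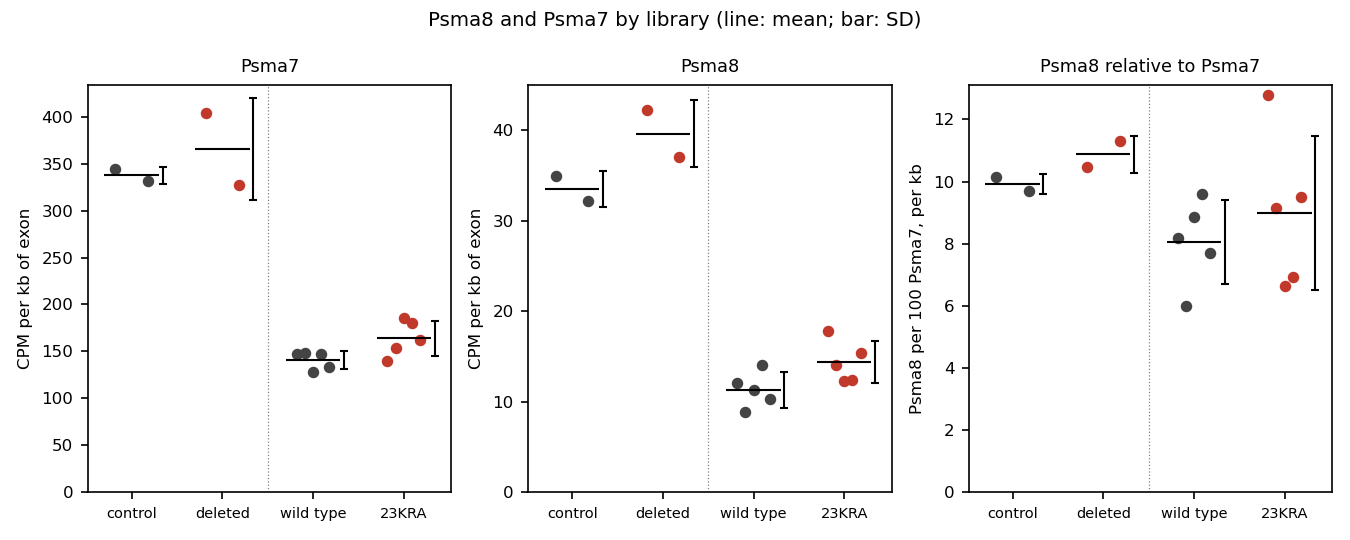
Levels of Psma7 and Psma8 (CPM per kb of exon) and Psma8 per 100 Psma7 (per kb) in each library of the 4 groups, with the group mean as a line and the SD as a bar. Psma8 reaches at most 42.2 CPM per kb, and homozygous replicate 1, at 12.8 per 100, stands highest in the ratio.

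The catalytic beta subunits were present mainly as their constitutive forms. Psmb6, which carries the caspase-like site, was at 299.8 and 276 CPM in oil controls, against 345 and 277 CPM in deleted animals. Psmb7, with the trypsin-like site, was at 282 and 280.3 CPM in oil controls, against 329 and 280.2 CPM in deleted animals. Psmb5, with the chymotrypsin-like site, was at 112 and 104 CPM in oil controls, against 123 and 111 CPM in deleted animals. Deleted replicate 1 was the highest library for all 3, and the other deleted library lay at or within the control values. Their log2 fold changes were 0.11 (SE 0.11) for Psmb5, 0.11 (SE 0.11) for Psmb6 and 0.12 (SE 0.11) for Psmb7, none past the test.

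In the 23KRA experiment, Psmb6 was at 99.9, 113, 87.7, 103 and 98.1 CPM in wild types and at 126, 133, 121, 109 and 102 CPM in homozygous animals. Psmb7 was at 97.3, 140.4, 106, 122 and 120.0 CPM in wild types and at 106, 119.8, 122, 126 and 106 CPM in homozygous animals. Psmb5 was at 32.9, 35.8, 35.0, 33.3 and 35.3 CPM in wild types and at 32.8, 31.4, 40.2, 35.7 and 29.8 CPM in homozygous animals. Psmb6 alone of the 3 had 3 homozygous libraries above every wild type. It had the smallest p of any member there, with a log2 fold change of 0.24 (SE 0.10, adjusted p = 1.00 by edgeR's quasi-likelihood test), so it did not pass. Psmb5 (-0.02, SE 0.14) and Psmb7 (-0.02, SE 0.10) lay near 0. Psmb5 shares 98.9% identity with the processed pseudogene Gm3375 over 796 bases, and Psmb7 shares an exon region with Nek6 on the opposite strand, so their counts are less certain than those of Psmb6.

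Of the inducible forms, Psmb10 was detected in all 14 libraries. It was at 21.4 and 20.0 CPM in oil controls, against 23.4 and 18.6 CPM in deleted animals, and the deleted values enclosed the control values. In wild types it was at 6.10, 2.56, 8.56, 3.47 and 3.89 CPM and in homozygous animals at 5.85, 4.88, 5.93, 3.84 and 6.59 CPM. The 5 homozygous libraries lay inside the range of the wild types. The log2 fold changes were 0.020 (SE 0.15) and 0.14 (SE 0.41). Per kb, Psmb10 made up 6.11% ± 0.258 of Psmb7 and Psmb10 together in controls and 5.73% ± 0.259 in deleted animals (SD, n = 2 each), and 3.75% ± 2.12 and 4.02% ± 1.01 in wild types and homozygous animals (SD, n = 5 each). Over all annotated exons the control share was 12.9% and the wild-type share 8.02%.

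Psmb8 and Psmb9, which lie in the class II region of the major histocompatibility complex on chr17:34197721-34201454 and chr17:34181987-34187764, were low in all libraries. Psmb8 had 26 and 22 counts in controls and 37 and 16 in deleted animals, that is 0.921, 0.699, 1.30 and 0.558 CPM. Psmb9 had 63 and 82 counts in controls and 70 and 42 in deleted animals, or 2.23, 2.61, 2.46 and 1.46 CPM. The groups overlapped for both genes, and neither passed the test (0.20, SE 0.47, and -0.30, SE 0.30, on the log2 scale). Per kb these were 0.410% and 0.429% of the Psmb5 and Psmb8 pair, and 0.496% and 0.365% of the Psmb6 and Psmb9 pair, as means of controls and deleted animals. Over all annotated exons the shares of Psmb8 were 0.198% and 0.207%. Psmb9 shares 212 bases of exon with Tap1 on the opposite strand.

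Both genes fell under the filter on low counts in the 23KRA experiment. Psmb8 had 0, 10, 0, 7 and 0 counts in wild types and 54, 16, 0, 1 and 10 in homozygous animals. Psmb9 had 12, 0, 0, 7 and 5 counts in wild types and 7, 0, 4, 13 and 20 in homozygous animals. A count of 0 allows up to 3 counts, which is 0.151 to 0.207 CPM in the libraries where Psmb8 had none. The 54 counts of Psmb8 in homozygous replicate 1 were 4.28% of its pair per kb (exact 95% interval 3.22 to 5.58%, counting error only), against at most 1.82% in the other 9 libraries. Over all annotated exons the share was 2.11%. In that library the markers of macrophages and leukocytes summed to 23.1 CPM over 14 genes, with 12.9 to 196 CPM in the experiment, and interferon response genes to 80.1 CPM, with 65.1 to 96.4 CPM. Wild-type replicate 3 had the highest macrophage and leukocyte sum, 196 CPM, with 0 counts of Psmb8 and of Psmb9 and the highest Psmb10, 133 counts. The part of such cells in the Psmb8, Psmb9 and Psmb10 values was not tested.

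Psmb11 had 4 and 7 counts in controls and 4 and 3 in deleted animals, and 0 counts in 6 of the 10 libraries of the 23KRA experiment, where the highest value was 14 counts in wild-type replicate 1. It was not tested in either comparison.

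**Figure D2:**
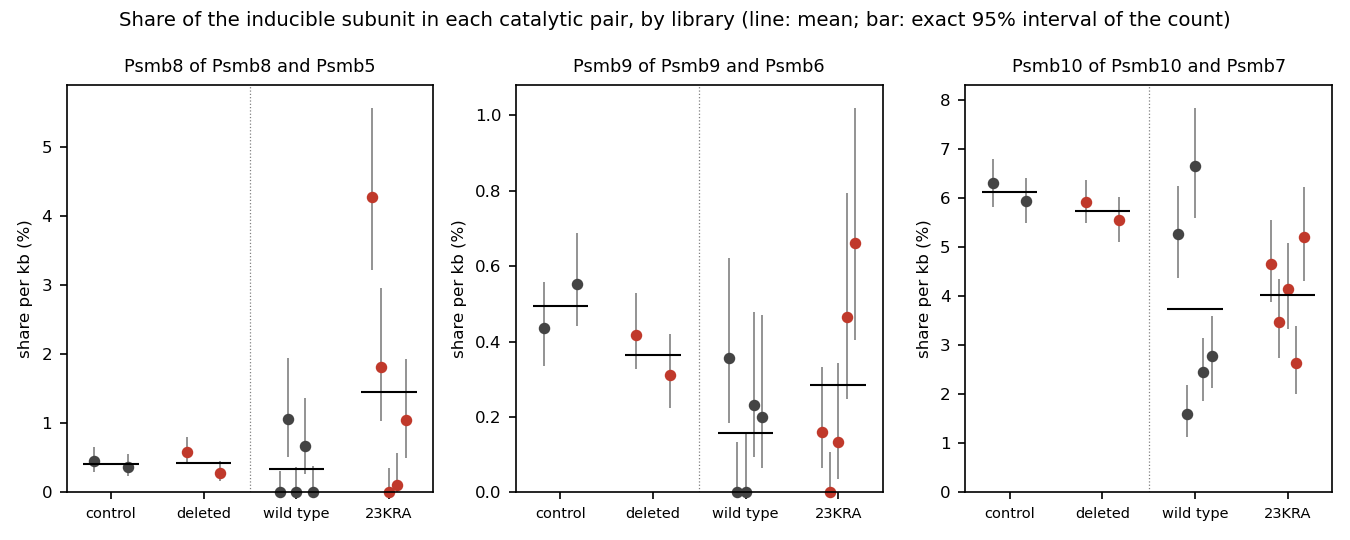
Share (%) of Psmb8, Psmb9 and Psmb10 in the pair each forms with its constitutive counterpart, per kb of exon, in each library of the 4 groups, with the group mean as a line and the exact 95% interval of the count as a grey bar. Psmb8 and Psmb9 stay below 1% in the deletion experiment and Psmb10 near 6%, and homozygous replicate 1, at 4.28%, stands apart for Psmb8.

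For the deletion comparison, 38 members could be tested, all but Psmb11, and 0 had an adjusted p under 0.05 in edgeR's quasi-likelihood test. Over all 16725 genes tested 2 did, or 0.012%. At an unadjusted p under 0.05 there was 1 member, Psmd10, which was higher, against 4.74% of all genes (2.05% higher and 2.69% lower). DESeq2 and limma-voom likewise called 0 members, and each called 1 gene over the whole table. Psmd10, a base chaperone also known as gankyrin (chrX:140948429-140956728, minus strand), was at 54.2 and 50.2 CPM in oil controls, against 67.4 and 57.7 CPM in deleted animals. Both deleted libraries lay above both controls (log2 fold change 0.26, SE 0.13, adjusted p = 0.971 by edgeR's quasi-likelihood test). Next by p came Psma8, given above, and Psmb3, a structural beta subunit, at 213 and 185 CPM in oil controls, against 265 and 198 CPM in deleted animals (0.22, SE 0.12 on the log2 scale). For Psmb3 the groups overlapped, and deleted replicate 2 lay between the controls. Psmb3 has 3 pseudogene copies, the longest 97.1% identical over 618 bases, so its count is less certain.

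In 4 of the 38 members, Psmd10, Psma8, Psmd2 and Psmd1, both deleted libraries were above both controls, where 15.6% of all genes were. In 0 of the 38 were both below, where 17.5% of all genes were. Psmd2 was at 1047 and 1022 CPM in oil controls, against 1153 and 1123 CPM in deleted animals, and Psmd1, the other scaffold of the base, at 522 and 488 CPM against 559 and 532 CPM. These separations were small, at 0.14 (SE 0.10) and 0.11 (SE 0.10) on the log2 scale. Psmd2 shares 96.4% identity with the processed pseudogene Gm5422 over 2726 bases. Psmd1 shares 305 identical bases with Gm21972, which overlaps it on the same strand. The counts of both genes are therefore less certain.

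A further pattern in the deletion experiment rested mostly on a single library. Of the 38 members tested, 31 had a log2 fold change above 0, where 49% of all genes did, with a median of 0.10 against -0.0044 for all genes and 0.018 for the 5424 genes of at least 50 CPM. The medians by role were 0.13 for the alpha ring (8 of 8 above 0), 0.11 for beta subunits (8 of 10), 0.064 for ATPases (6 of 6) and 0.099 for non-ATPase genes (9 of 14). Single members ran from -0.30 (Psmb9) to 0.26 (Psmd10). Deleted replicate 1 was the highest of the 4 libraries for 34 of the 38 members, where it was the highest for 30.3% of all genes, and deleted replicate 2 was the highest for 0 members, against 21.4% of all genes. Without deleted replicate 1 the median was -0.033, with 10 members above 0 and 28 below. Without deleted replicate 2 it was 0.20, with 37 above 0 and 1 below.

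The summed levels show the same library apart in every class. Alpha genes summed to 2119 and 1929 CPM in oil controls, against 2370.3 and 1989 CPM in deleted animals. Beta genes summed to 2110.2 and 2009 CPM in oil controls, against 2389 and 2004 CPM in deleted animals. ATPases summed to 2179.8 and 2080.8 CPM against 2349 and 2068 CPM, and non-ATPase genes to 4267 and 4114 CPM against 4640.4 and 4212 CPM. In each class deleted replicate 1 stood above both controls while deleted replicate 2 stood within them or below. Control replicate 1 also stood above control replicate 2 in each class. Whether the levels follow the replicate number was not tested. The 2 deleted animals also differed more from each other in these genes than the controls did: over members of at least 50 CPM the median coefficient of variation was 9.83% in deleted animals and 4.83% in controls, against 6.37% and 5.09% for all genes of that level.

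Other RNA moved with that library, and some with both deleted libraries. In deleted replicate 1 the macrophage and leukocyte markers summed to 139 CPM, against 82.7 and 65.4 CPM in oil controls and 64.4 CPM in deleted replicate 2. The class II genes Cd74, H2-Aa, H2-Ab1 and H2-Eb1 had the highest levels of that list. In the comparison of both deleted libraries with controls, 12 of its 14 genes were above 0 and 0 passed the test. The 2 below 0 were the macrophage genes Csf1r (-1.08, SE 0.74) and Adgre1 (-0.68, SE 0.54). Deleted replicate 1 also had the highest sums for markers of differentiating spermatogonia and of spermatocytes, 5621 and 4503 CPM. The other 3 libraries had 4766 to 5337 and 4068 to 4240 CPM. Its interferon response genes were at 135 CPM against 125 to 127 CPM. Dazl had the largest part of the first sum, averaging 3126 CPM with oil and 3468 CPM with tamoxifen. Between the groups, 6 of 7 spermatogonial and 7 of 10 spermatocyte markers were above 0, and 0 passed the test. Those below 0 were Dmrtb1 (-0.26, SE 0.11), Ccna1 (-0.27, SE 0.16), Ldhc (-0.20, SE 0.10) and Pgk2 (-0.089, SE 0.11). Spermatid markers were lower in both deleted libraries, at 2336 and 2678 CPM against 2695 and 3036 CPM in controls, with 8 of 8 genes below 0 (median -0.21) and 0 past the test. Leydig cell markers were lower in both deleted libraries, at 12.6 and 14.1 CPM against 22.2 and 17.6 CPM in oil controls. Of these, 5 of 6 genes were below 0 and 1, Cyp17a1, passed the test (-1.86, SE 0.26, adjusted p = 0.00315 by edgeR's quasi-likelihood test). Their part in the level of the proteasome genes was not tested.

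**Figure D3:**
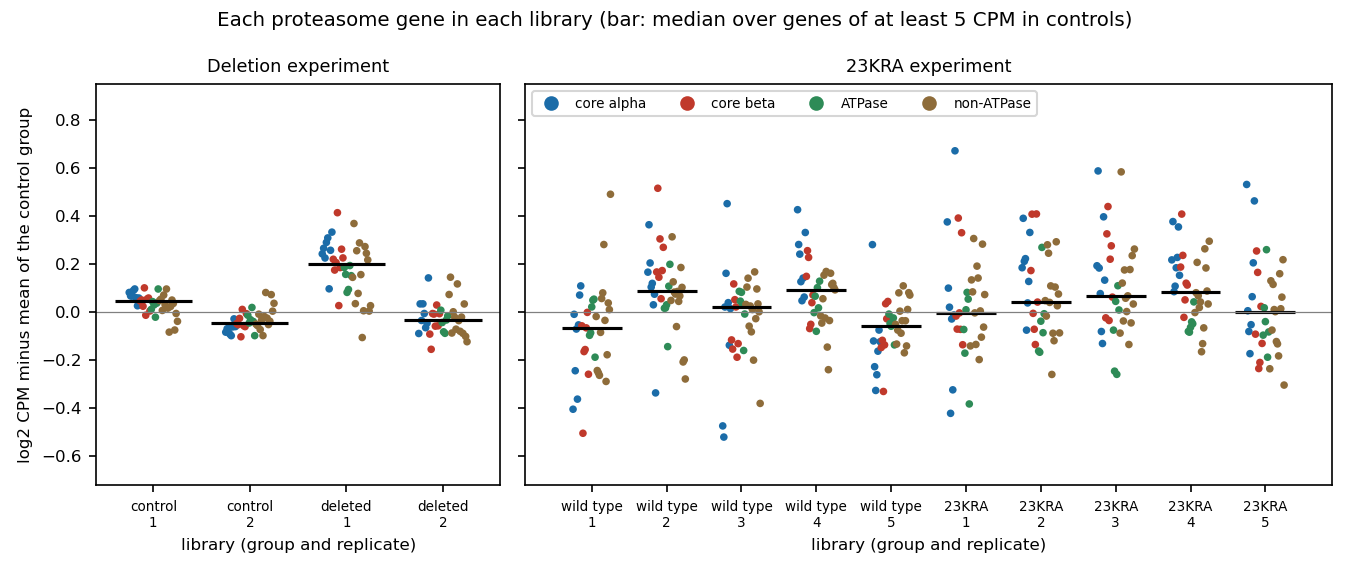
Each proteasome gene of at least 5 CPM in controls, as its log2 CPM minus the mean of the control group of its experiment, by library and coloured by class, with the library's median as a bar. Deleted replicate 1 has a median of 0.20 while deleted replicate 2 lies slightly below 0, and the libraries of the 23KRA experiment vary around 0 with no gap between groups.

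For the 23KRA comparison, 36 members could be tested and 0 had an adjusted p under 0.05, as was the case for 0% of all 14208 genes. At an unadjusted p under 0.05 there were 2 members, Psmb6 and Psma7, both higher in homozygous animals, where 3.04% of all genes reached that level in either direction and 1.68% upward. DESeq2 and limma-voom also called 0 members, and 0 of all genes tested. Next came Psmd4, a ubiquitin receptor of the base, at 264, 283, 303, 263 and 240.0 CPM in wild types and 235, 248, 246, 258 and 238 CPM in homozygous animals. Its homozygous values were below 4 of the 5 wild types and overlapped the remaining one (log2 fold change -0.14, SE 0.076, adjusted p = 1.00 by edgeR's quasi-likelihood test). No member had all 5 homozygous libraries above, or all 5 below, every wild type, where 0.436% and 0.274% of all genes did.

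By role, the 23KRA fold changes lay on both sides of 0. They ran from -0.14 (Psmd4) to 0.35 (Psma8). Over all 36 members 21 were above 0, where 50.8% of all genes were, and the median was 0.047 against 0.0034 for all genes. It was 0.15 for alpha genes (5 of 8 above 0), 0.092 for beta genes (5 of 8), -0.057 for ATPases (1 of 6), -0.080 for the base subunits Psmd1, Psmd2 and Psmd4 (0 of 3), 0.065 for lid subunits (7 of 8) and 0.14 for the chaperones (3 of 3). The ATPases and these non-ATPase base subunits, which form the base together, thus had 1 of 9 genes above 0. The deletion did not show this split: 6 of 6 ATPases, 2 of 3 base subunits, 5 of 8 lid subunits and 2 of 3 chaperones were above 0 there. No member in these groups passed the test, and the differences between the groups were not tested. Summed ATPase levels were 1350.4 to 1445 CPM in wild types and 1340.1 to 1371 CPM in homozygous animals, and alpha genes summed to 923 to 1190.0 and 965 to 1205 CPM. These ranges overlapped.

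Of the genes with the highest level per kb in their class, Psmd2, Psmb6 and Psmd4 are described above, and the others follow. Psmc3 was at 604 and 578 CPM in oil controls, against 626 and 558 CPM in deleted animals, and between 491 and 549.6 CPM in wild types and 497 and 535 CPM in homozygous animals. Psma6 was at 503 and 463 CPM in oil controls, against 516 and 461 CPM in deleted animals, and Psmb2 at 405 and 391 against 459 and 396 CPM. Psma4 was at 400.0, 452, 469.9, 459 and 335 CPM in wild types and 314, 490.3, 443, 453 and 373 CPM in homozygous animals. Its homozygous animals spread from below to above all wild types. None of these 4 passed the test. Psma4 shares 96.8% identity with the processed pseudogene Gm6542 over 783 bases, so its count is less certain.

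**Figure D4:**
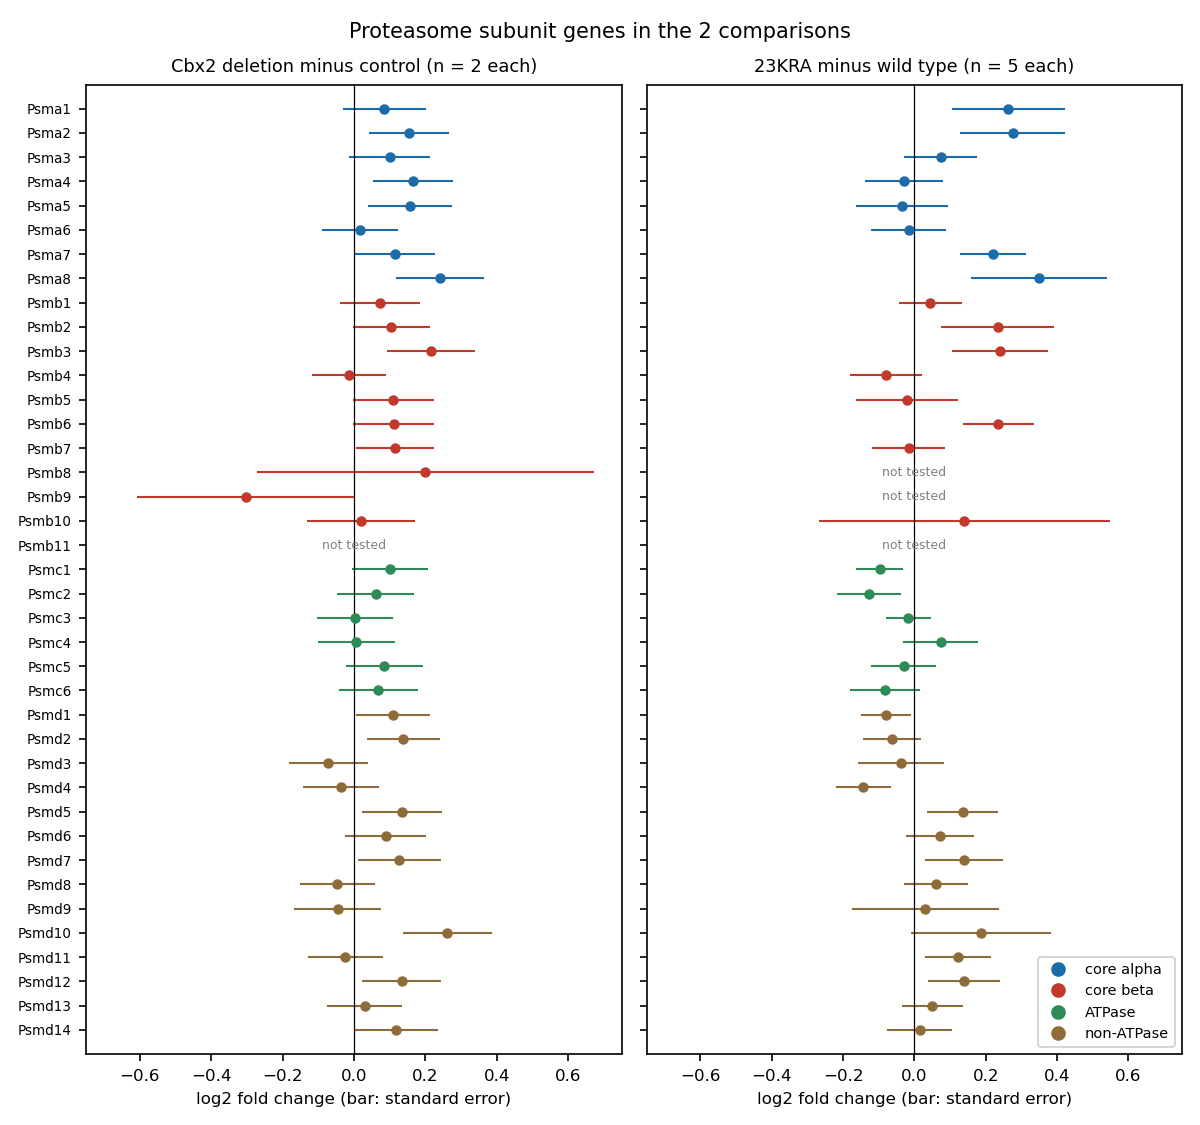
Log2 fold change of every proteasome gene, deleted minus control (n = 2 each) and homozygous 23KRA minus wild type (n = 5 each), with its standard error as a bar and its class as colour. In the deletion 31 of 38 genes lie to the right of 0, and in 23KRA 21 of 36 do, with the ATPases mostly to the left.

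Partners of the proteasome that do not carry a subunit symbol were read from a list of 32 genes, of which 31 were tested in each experiment and Paaf1 was not analysed here. None passed the test in either comparison. An unadjusted p under 0.05 was reached by 0 of them, against 4.74% of all genes in the deletion and 3.04% in 23KRA. In the deletion 20 were above 0 and 11 below (median 0.022), where 49% of all genes were above 0. In 23KRA 18 were above 0 and 13 below (median 0.015), where 50.8% of all genes were above 0. These medians lay nearer to 0 than those of the subunits. Over all genes of at least 50 CPM the medians were 0.018 in the deletion and -0.0023 in 23KRA. Among the activators, Psme4, which opens the core in germ cells and elsewhere, was at 164 ± 8.35 CPM in oil controls, against 155 ± 16.1 CPM in deleted animals (SD, n = 2 each), and at 238 ± 16.3 and 219.8 ± 26.5 CPM in wild types and homozygous animals (SD, n = 5 each). Psme3, the nuclear activator, was at 406 ± 18.6 against 428 ± 8.45 CPM in the deletion experiment (SD, n = 2 each). Psme1 and Psme2, which form the interferon-inducible activator, were at 78.0 and 109 CPM in oil controls, against 80.0 and 122 CPM in deleted animals. Psmf1, an inhibitor of the core, had the smallest p in the deletion (119 ± 13.9 against 105 ± 7.96 CPM, SD, n = 2 each, -0.17 on the log2 scale, SE 0.12). Nfe2l1, the factor that raises proteasome genes when the proteasome is blocked, was at 138 ± 5.10 against 149 ± 9.11 CPM in the deletion (SD, n = 2 each) and at 177 ± 24.7 against 181 ± 16.7 CPM in 23KRA (SD, n = 5 each).

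Promoter windows are shown for those of the 3 members of smallest p in each comparison that have an entry in RefSeq's table, since these are the genes on which the comparisons come closest to a call. Each runs from 250 bases before to 50 after the start, 5′ to 3′ on the strand of the gene (GRCm38.p6). Capitals mark matches on either strand to the antioxidant response element TGACNNNGC, to which Nfe2l1 and related factors bind, the interferon-stimulated response element (TTTC, any 2 bases, TTTC) or the CCAAT box, which reads ATTGG on the other strand. The windows are chrX:140956662-140956961 (minus strand) for Psmd10, chr11:97703184-97703483 (plus strand) for Psmb3, chr11:70525107-70525406 (plus strand) for Psmb6, chr2:180042415-180042714 (minus strand) for Psma7 and chr3:95042565-95042864 (minus strand) for Psmd4.
Psmd10: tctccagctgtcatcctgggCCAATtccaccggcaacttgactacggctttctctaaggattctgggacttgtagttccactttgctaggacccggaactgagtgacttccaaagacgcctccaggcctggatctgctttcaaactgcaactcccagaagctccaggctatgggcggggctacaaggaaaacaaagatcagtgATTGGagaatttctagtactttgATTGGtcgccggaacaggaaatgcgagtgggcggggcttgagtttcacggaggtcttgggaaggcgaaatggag
Psmb3: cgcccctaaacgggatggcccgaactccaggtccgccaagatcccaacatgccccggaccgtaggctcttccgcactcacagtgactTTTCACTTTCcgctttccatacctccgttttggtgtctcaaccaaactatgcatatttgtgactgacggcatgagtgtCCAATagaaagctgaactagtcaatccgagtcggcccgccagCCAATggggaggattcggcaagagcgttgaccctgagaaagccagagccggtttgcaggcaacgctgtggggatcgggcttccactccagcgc
Psmb6: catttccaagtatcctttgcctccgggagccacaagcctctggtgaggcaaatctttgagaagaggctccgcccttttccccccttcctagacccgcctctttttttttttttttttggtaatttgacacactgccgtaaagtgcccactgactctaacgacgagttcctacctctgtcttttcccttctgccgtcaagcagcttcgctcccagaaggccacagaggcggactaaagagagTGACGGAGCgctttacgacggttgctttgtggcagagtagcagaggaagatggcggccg
Psma7: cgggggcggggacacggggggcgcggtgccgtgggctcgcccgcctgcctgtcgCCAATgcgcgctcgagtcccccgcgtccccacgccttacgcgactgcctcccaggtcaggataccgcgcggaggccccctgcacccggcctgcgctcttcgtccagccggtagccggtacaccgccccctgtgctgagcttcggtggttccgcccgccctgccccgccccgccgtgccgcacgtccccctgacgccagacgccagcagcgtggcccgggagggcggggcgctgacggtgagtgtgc
Psmd4: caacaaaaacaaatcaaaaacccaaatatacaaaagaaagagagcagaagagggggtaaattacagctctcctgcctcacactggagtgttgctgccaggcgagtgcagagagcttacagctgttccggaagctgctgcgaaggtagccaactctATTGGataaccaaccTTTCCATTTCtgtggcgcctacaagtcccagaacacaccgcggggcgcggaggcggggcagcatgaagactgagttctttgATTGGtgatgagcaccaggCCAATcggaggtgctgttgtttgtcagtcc
Psmd10 held 3 CCAAT boxes, Psmb3 held 2 and an interferon-stimulated element, Psmb6 held an antioxidant element whose first base in the gene's direction lay 9 bases before the start, Psma7 held 1 CCAAT box, and Psmd4 held 3 CCAAT boxes and an interferon-stimulated element. A window was found for 32 of the 39 members, 34 windows in all. The antioxidant element was in 5 of these 34 (14.7%) against 12.4% of all 32841 windows, the interferon-stimulated element in 3 (8.82%) against 3.44%, and the CCAAT box in 13 (38.2%) against 37.4%. Members with the interferon-stimulated element were Psmb3, Psmd4 and Psmd9, none of them an inducible subunit. The median G and C content was 56.0% over members and 52.7% over all windows. The Psma7 window, at 77.0%, was the highest of the members. A match to these letters is a description of the sequence and says nothing of binding.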

How the data were processed

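Raw counts per gene symbol, not normalized, were deposited in 1 table for each of the 2 experiments. The submitters' processing notes name featureCounts, Subread 1.5.0, SAMtools 1.4.1, STAR 2.5.3, Trim Galore 0.4.3 and the build mm10. Which annotation and strand setting were used, and how multi-mapping reads were counted, is not given in the sources used here, so genes with overlapping or near-identical exons may share counts: 12 of the 39 members had another transcript at least 95% identical over 200 bases, in 8 of them a pseudogene. Per the labels' protocols, the deletion libraries came from an mRNA kit and the 23KRA libraries from a stranded total RNA kit with ribosomal cDNA depleted, although the labels give polyA RNA as the molecule of both. The tables were tested apart.

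Each table was fitted whole in R 4.3.3 with edgeR 4.0.16 (filterByExpr, TMM scaling, two-sided quasi-likelihood F test, Benjamini-Hochberg adjustment over all genes tested, threshold 0.05). The standard error is the log2 fold change divided by the square root of F. P-values rest on the spread between animals, preparation included. The test was checked on simulated data first. Alternatives used DESeq2 1.42.0, limma 3.58.1, other scaling factors, no filter, a replicate block and leaving out each library. Exon lengths and positions are from GENCODE M21 on GRCm38, over RefSeq-matched transcripts, and BLAST+ 2.17.0 searched for copies. Psma8 and Psma7 were compared as log2 count ratios with 0.5 added to each. Intervals and limits cover counting error only, and amplified reads are not independent molecules.

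All members and lists were chosen with earlier results of these data known. Values by library are given for Psma7, Psma8, Psmb5 to Psmb11, the highest member per kb of each class and the 3 members of smallest p in each comparison. Psmd1 and genes with a library far from the rest of its group were named after their values were seen.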

Additional observations from a re-analysis of the deposited data

Results flagged for a closer look

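Within groups of 5 animals, 1 library stood apart from the other 4 for 4 genes and 1 summed level, all in homozygous 23KRA animals, by a gap of over 0.71 of the whole range of the group. Psma5, an outer-ring subunit, was at 109.9 CPM in replicate 4 with the others at 91.4 to 94.8 CPM. Psmc1, an ATPase, was at 328 CPM in replicate 2 with the others at 344 to 349.6 CPM. In replicate 3, Psmd10 was at 27.0 CPM against 17.8 to 19.8 CPM and the lid subunit Psmd13 at 123 CPM against 109 to 112 CPM. Psma5 and Psmc1 each have 2 pseudogene copies, and Psmd13 shares 329 bases with Sirt3 on the opposite strand. The counts of Psma5, Psmc1 and Psmd13 are therefore less certain. The summed non-ATPase level was 2210.2 CPM in replicate 5 against 2338 to 2357 CPM. Chance flags about 1 in 20 groups, which is 4.2 of the 84 examined, and 5 were found.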

How the results depend on the processing

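The number of proteasome genes called was 0 in both comparisons under every alternative run. When 1 library was left out, the median over members in the deletion ran from -0.033 (without deleted replicate 1) to 0.20 (without deleted replicate 2), and the Psma8 to Psma7 difference in 23KRA from -0.0011 (without homozygous replicate 1) to 0.24. Named genes whose sign changed, none past the test, are given by the lowest and highest log2 fold change with 1 library left out. In the deletion the lowest values came without deleted replicate 1 and the highest without deleted replicate 2: -0.041 to 0.26 for Psma7, -0.0072 to 0.41 for Psmb3, -0.054 to 0.26 for Psmb6, -0.0021 to 0.23 for Psmb7, -0.53 to 0.68 for Psmb8, -0.72 to 0.021 for Psmb9 and -0.15 to 0.17 for Psmb10, which was also at -0.031 without control replicate 2. In 23KRA they were -0.020 (without wild-type replicate 2) to 0.43 for Psmb10, -0.076 to 0.057 for Psmb7 (also 0.0064 and 0.014) and -0.096 to 0.023 for Psmb5 (also 0.0063). The cause was not tested.

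The labels give the same replicate numbers in both groups of an experiment and do not say whether these mark pairs. Deviations of animals with the same number correlated at 0.161 in the deletion, with 2 pairs. Unlike numbers were there at -0.161, a mirror value that 2 libraries per group force. In 23KRA the same numbers correlated at -0.0109 to 0.224, where not every library correlated best with its own number. With a replicate block, 0 members were called in either experiment. The medians were 0.097 and 0.048, and the Psma8 to Psma7 differences were 0.13 and 0.14. The block moved the genes called over the whole table from 2 to 62 in the deletion and from 0 to 2 in 23KRA. Depth limits Psmb8, Psmb9 and Psmb11, whose counts were too few for a test in 23KRA.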
